A study of Homo sapiens with 6 samples.

Results

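CPA4, BANK1 and KANSL1L were among the genes that stood furthest below control when ADNP was depleted in HCT116, an established human colon cancer cell line. These 3 genes, of 23368 gene symbols in the count table, were taken for the size of their falls outside known pathways, so they were chosen by their log2 fold change in this same contrast. Their falls are therefore given as a description, with no test. The cells had received either siADNP, an siRNA directed at ADNP, or siControl, a control siRNA, in 3 libraries each, which the design text calls biological replicates. The labels give neither the siRNA sequence nor its dose or duration, and all samples come from the same line.

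ADNP is a zinc finger and homeodomain protein that works on chromatin together with remodelling enzymes. The 3 genes are unlike one another in what they encode. CPA4 is a secreted zinc carboxypeptidase of the M14 family, made as an inactive precursor, which removes hydrophobic residues from the ends of peptides. It lies beside other carboxypeptidase genes near the imprinted gene MEST. BANK1 is a scaffold protein with ankyrin repeats, best known from B lymphocytes, where the kinase LYN phosphorylates it after the B cell receptor is engaged and where it binds the IP3 receptor calcium channel. KANSL1L is a relative of KANSL1, the scaffold of the NSL complex in which the acetyltransferase KAT8 acetylates histone H4.

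The knockdown was present in every siADNP library. ADNP stood at 46.7, 55.3 and 59.8 CPM (counts per 1000000 gene reads, after TMM scaling) in the siADNP libraries and at 171, 155 and 167 CPM in the siControl libraries, without overlap. Reads assigned to genes numbered 7396771 to 8726017 per siADNP library and 8282290 to 10265175 per siControl library. Of 12489 genes tested, 14.6% were called higher and 13.7% lower by edgeR's quasi-likelihood test at an adjusted p under 0.05, and the median log2 fold change over all of them was -0.00128. Groups that did not overlap, with siADNP lower, were found in 20.7% of genes tested. Beyond the term biological replicates, the labels do not describe how the libraries of a group were kept apart, so each p-value reflects only how far these samples spread, which may be partly technical.

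CPA4 was the most strongly reduced of the 3. Its level was 52.0, 53.3 and 50.4 CPM in siControl replicates 1 to 3 and 15.8, 15.6 and 16.9 CPM in siADNP replicates 1 to 3. The replicates of each group lay close together, and the lowest control value was far above the highest siADNP value. The means were 51.9 ± 1.46 and 16.1 ± 0.717 CPM (SD, n = 3). The siADNP level was 3.23-fold lower (log2 fold change -1.69 ± 0.09, SE). The values rest on 1424 reads in the control group and 386 reads in the siADNP group. The chi-square per degree of freedom of the read counts within a group was 0.373 for siControl and 0.247 for siADNP, below the average of 1 that counting error alone gives.

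BANK1 was weakly expressed and more variable. Control libraries held 8.63, 10.9 and 9.52 CPM and siADNP libraries 4.24, 6.46 and 4.34 CPM. The groups did not overlap, but siADNP replicate 2 stood above the other siADNP libraries and closest to the control range, whose lowest value was in siControl replicate 1. The means were 9.69 ± 1.15 and 5.01 ± 1.25 CPM (SD, n = 3), and siADNP was 1.92-fold lower (log2 fold change -0.94 ± 0.18, SE). These levels rest on few reads, 77, 111 and 79 in the control libraries and 33, 57 and 32 in the siADNP libraries. The chi-square per degree of freedom was 2.58 in the siADNP group and 1.30 in the control group, values that counting error alone can give with 3 libraries.

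KANSL1L resembled BANK1 in level and in the size of its fall. It stood at 11.4, 15.0 and 14.3 CPM in the control libraries and at 6.81, 7.36 and 8.68 CPM in the siADNP libraries. SiControl replicate 1 was the lowest control library and still lay above siADNP replicate 3, the highest siADNP library. The means were 13.6 ± 1.88 and 7.61 ± 0.960 CPM (SD, n = 3), or 1.79-fold lower with siADNP (log2 fold change -0.84 ± 0.15, SE), from 373 reads in the control group and 182 reads in the siADNP group. The chi-square per degree of freedom was 2.38 in the control group and 0.919 in the siADNP group. Both KANSL1L and BANK1 were lower in siControl replicate 1 than in the other control libraries, which was not so for CPA4.

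**Figure D1:**
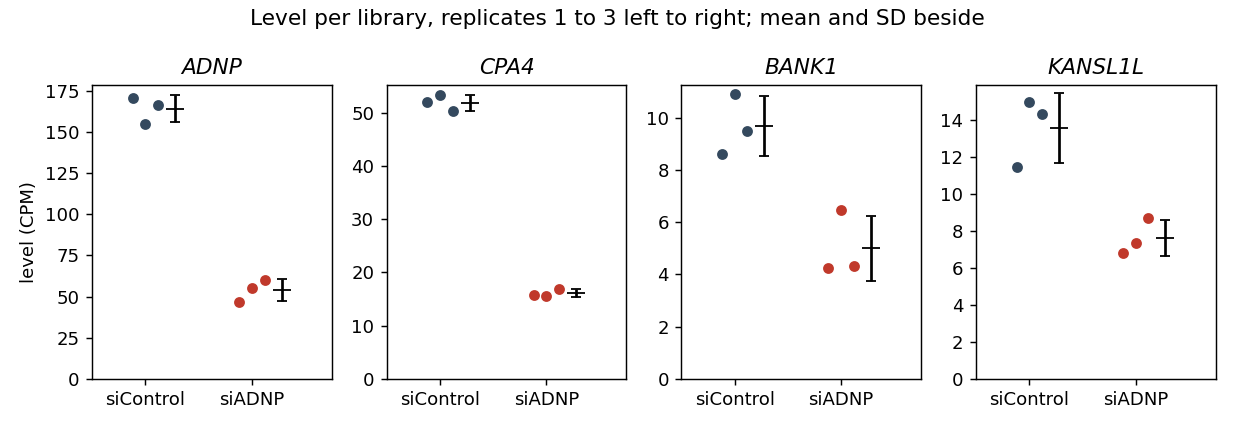
Level in CPM (linear axis from 0) of ADNP and the 3 genes in each library; points are replicates 1 to 3 from left to right, and the bar beside them is the mean with its SD (n = 3). The groups do not overlap in any panel; CPA4 falls from 51.9 to 16.1 CPM with little spread, while BANK1 and KANSL1L fall from 9.69 to 5.01 and from 13.6 to 7.61 CPM with more spread.

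The read counts do not compare levels between genes, because longer transcripts give more reads. Per kilobase of the longest annotated transcript (2817 bases for CPA4, 3544 for BANK1 and 4754 for KANSL1L), the control level of CPA4 was 18.4 ± 0.519 CPM per kb (SD, n = 3). That placed it at the 71.0th percentile of the genes tested. KANSL1L stood at 2.86 ± 0.395 and BANK1 at 2.73 ± 0.325 CPM per kb in control cells (SD, n = 3), at the 23.6th and 22.7th percentiles, and these 2 levels differed by less than their spread. With siADNP, CPA4 stood at 5.72 ± 0.255, KANSL1L at 1.60 ± 0.202 and BANK1 at 1.41 ± 0.353 CPM per kb (SD, n = 3). The order was the same as in control cells, and CPA4 after depletion was still above BANK1 and KANSL1L in control cells. The longest transcript may not be the one these cells make.

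Among the 10540 genes that averaged 5 CPM or more and had a gene symbol that is not a locus or clone number, CPA4 and ADNP itself had the largest falls. ADNP had a log2 fold change of -1.61 ± 0.07 (SE), and the step from it to CPA4 was smaller than the SE of CPA4, so their order is not resolved. Among all 12489 genes tested, with weakly expressed genes included, CPA4 ranked 3rd, ADNP 4th, BANK1 28th and KANSL1L 49th. BANK1 was 10th and KANSL1L 12th in the first order. BIRC3, an inhibitor of apoptosis, came directly before BANK1 with -0.999 and the growth factor gene PDGFA directly after it with -0.93. The zinc finger gene ZNF624 followed KANSL1L with -0.84. Steps between these genes were smaller than their standard errors of 0.14 to 0.18, so BANK1 and KANSL1L hold no distinct place in this order.

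**Figure D2:**
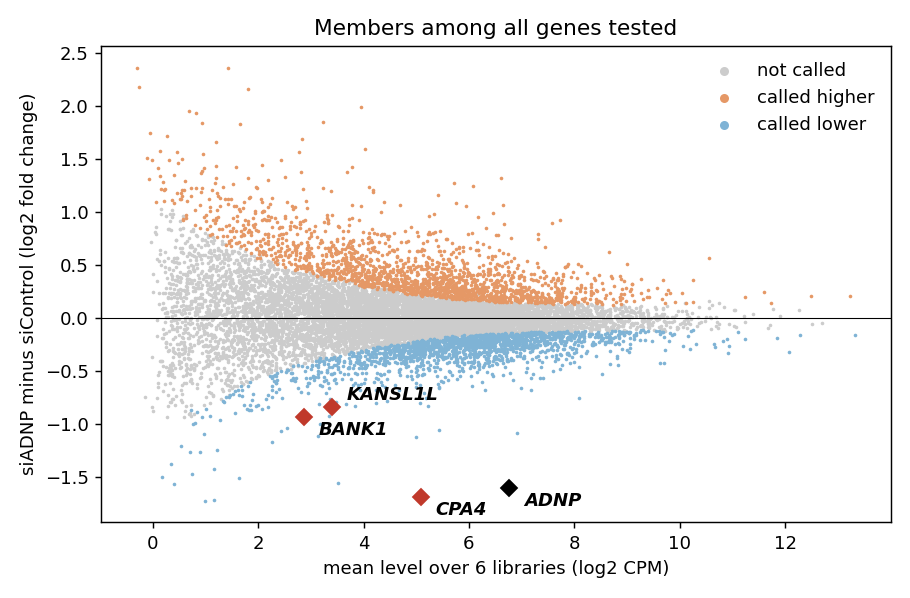
Log2 fold change (siADNP minus siControl) of each gene tested against its mean level over the 6 libraries in log2 CPM; orange and blue mark genes called higher or lower by edgeR, red diamonds the 3 genes and the black diamond ADNP. CPA4 sits at -1.69, alongside ADNP at -1.61, and BANK1 and KANSL1L lie at -0.94 and -0.84 at lower levels.

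Promoter sequences are shown so that the start regions of 3 genes that fell together can be compared. RefSeq (GRCh38.p14, a newer build than that of the counts) gives 1 start window for CPA4 and KANSL1L and 2 for BANK1. The 250 bases before each start are printed 5′ to 3′ on the gene's strand. Capitals mark matches, on either strand, to 6 motifs. The TATA box was searched as TATAAA and the site of the AP-1 transcription factors as TGANTCA. The GC box, which Sp1 proteins bind, was searched as GGGCGG and the CCAAT box as those 5 letters. The octamer bound by OCT proteins was searched as ATTTGCAT and the site of ETS factors as ACTTCCT. The windows are chr7:130292911-130293160 (plus strand) for CPA4, chr4:101790480-101790729 and chr4:101813592-101813841 (plus strand) for BANK1, and chr2:210171410-210171659 (minus strand) for KANSL1L.
CPA4: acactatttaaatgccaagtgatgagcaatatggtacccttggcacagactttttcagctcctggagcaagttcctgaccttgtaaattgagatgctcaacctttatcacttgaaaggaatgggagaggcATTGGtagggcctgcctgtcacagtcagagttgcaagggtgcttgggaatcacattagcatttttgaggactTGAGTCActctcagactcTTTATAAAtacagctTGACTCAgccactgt
BANK1 start 1: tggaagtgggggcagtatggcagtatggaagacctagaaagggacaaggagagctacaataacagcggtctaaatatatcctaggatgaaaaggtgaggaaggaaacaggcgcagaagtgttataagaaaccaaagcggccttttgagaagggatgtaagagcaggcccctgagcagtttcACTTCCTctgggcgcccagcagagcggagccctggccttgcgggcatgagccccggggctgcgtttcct
BANK1 start 2: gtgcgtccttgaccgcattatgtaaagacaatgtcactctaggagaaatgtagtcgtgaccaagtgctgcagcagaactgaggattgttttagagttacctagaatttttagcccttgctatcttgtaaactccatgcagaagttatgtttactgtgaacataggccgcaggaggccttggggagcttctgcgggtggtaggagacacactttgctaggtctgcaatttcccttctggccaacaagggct
KANSL1L: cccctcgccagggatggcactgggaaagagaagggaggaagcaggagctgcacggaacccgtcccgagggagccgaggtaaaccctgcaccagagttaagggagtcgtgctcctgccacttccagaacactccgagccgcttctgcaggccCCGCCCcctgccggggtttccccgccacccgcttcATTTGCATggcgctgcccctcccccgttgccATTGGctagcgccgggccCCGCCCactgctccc

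The start windows of the 3 genes differ in CG count and in motif letters. The CPA4 window has no CG dinucleotide and a GC content of 44.4%, against a median of 11 CG and 58% GC over all 35116 RefSeq windows of this length. It holds TATA letters on both strands that overlap between bases 30 and 23 before the start, and AP-1 letters at bases 48 to 42 and 15 to 9. TATAAA was found in 10.7% of all windows, and TGANTCA at least once in 6.57% and at least 2 times in 0.402%. The KANSL1L window has 17 CG and a GC content of 68%, with 2 GC boxes, a CCAAT box and the octamer letters. At least 2 GC boxes are found in 24.3% of windows, and at least 1 CCAAT box or octamer in 32.0% and 1.63%. The first BANK1 window, with 8 CG, holds ETS letters (7.01% of windows), and the second, with 5 CG, holds none of the 6 motifs. No motif occurred in all 3 genes, and only CCAAT, at bases 120 to 116 in CPA4 and 33 to 29 in KANSL1L, occurred in 2 of them. Which motifs are shared depends on the choice of the 6, made with these sequences in view.

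**Figure D3:**
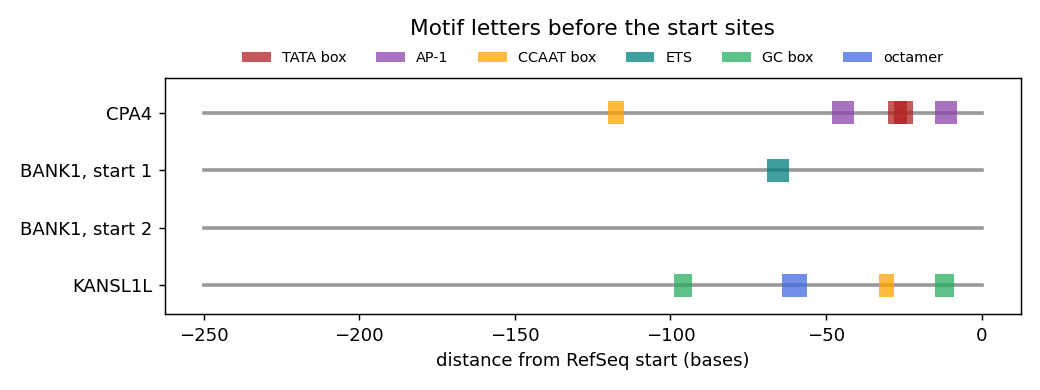
Positions of the motif letters in the 250 bases before each RefSeq start; the x axis is the distance from the start in bases, and coloured boxes mark matches on either strand. CPA4 carries TATA and AP-1 letters within the last 48 bases, KANSL1L carries GC box, octamer and CCAAT letters, and the second BANK1 start carries none.

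Other genes with the letters seen before CPA4 did not move one way. Besides the 3 genes, 33 genes tested had TGANTCA at least 2 times before a start. Of these, 8 were called higher and 8 lower (edgeR, adjusted p under 0.05), 24.2% in each direction, and their median log2 fold change was -0.01. Of 109 genes with both TATAAA and TGANTCA, 11 were called higher (10.1%) and 19 lower (17.4%), with a median of 0.04. Among the 9774 tested genes that have a window, 14.4% were called in each direction, so calls were more frequent among the 33 genes, both up and down, a difference that was not tested. The motifs were picked with the member sequences in view. A match gives letters and not a bound factor, and counts per gene do not say which BANK1 start was used.

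CPA4 had far more reads in these cells than 3 other A-type carboxypeptidases, CPA1, CPA3 and CPA5. CPA1 had 0 reads in the 6 libraries, which allows a level of up to 0.0583 CPM (3 reads over all libraries, counting error only), and CPA3 and CPA5 had 5 and 4 reads in each group. Of 22 other M14 carboxypeptidases, 6 had enough reads to test. AGBL5, a tubulin deglutamylase, rose from 39.1 ± 2.40 to 48.9 ± 0.598 CPM (SD, n = 3; log2 difference 0.32 ± 0.07, adjusted p = 0.000963 in edgeR), and none fell. The share called, 1 of 6, compares with 28.3% of all genes tested, and the median log2 fold change was 0.04.

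The other abundant family members did not pass. CPD, a membrane carboxypeptidase of the Golgi, stood at 213 ± 3.35 CPM in control and 214 ± 9.02 CPM in siADNP libraries (SD, n = 3). CPE, which trims prohormones, stood at 45.9 ± 3.16 and 50.7 ± 2.97 CPM, and CPM, a surface enzyme, at 11.9 ± 1.70 and 10.7 ± 0.689 CPM (SD, n = 3). AGTPBP1, another tubulin deglutamylase, had a log2 fold change of -0.16 ± 0.08. At an unadjusted p under 0.05, 1 member was lower, DESeq2's Wald test called 0 lower, and without siControl replicate 1 AGTPBP1 was called lower (-0.23, adjusted p = 0.0494, edgeR). Per kilobase, CPD and CPE averaged 22.7 and 19.9 CPM over the 6 libraries, near the control level of CPA4. LXN, which encodes latexin, the inhibitor of A-type carboxypeptidases, and its relative RARRES1 had 0 reads.

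Carboxypeptidases of other families were called about as often as genes in general. Of 8 listed, 6 were tested, 2 rose and none fell. The share called was 33.3%, against 28.3% of all genes tested, and the median over the 6 was 0.24 in log2 fold change. The lysosomal serine carboxypeptidase CTSA rose from 60.7 ± 3.39 to 72.6 ± 1.36 CPM (SD, n = 3; log2 difference 0.26 ± 0.06, adjusted p = 0.00197 in edgeR), and SCPEP1, a related enzyme, rose with 0.33 ± 0.10. PRCP, CPVL, ACE and CPQ had log2 fold changes of 0.21, 0.23, 0.56 and -0.54 and did not pass. None was lower at an unadjusted p under 0.05 or in DESeq2's Wald test, where 1 was higher. CTSA did not pass with an offset for transcript GC content (adjusted p = 0.0819 in edgeR; 0.109 when the replicate block was added), and SCPEP1 missed the threshold in DESeq2's test (0.0550) and on leaving out siADNP replicate 1 (0.0531) or 2 (0.0681). The adjusted p ranged from 0.000839 to 0.109 for CTSA and from 0.00499 to 0.0681 for SCPEP1 over the alternatives, and the count of rises was 1 without siADNP replicate 1 or 2.

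BANK1 was measured in cells with few or no reads of most B cell markers. Of 12 B cell markers, MS4A1, PAX5 and FCRL1 had 0 reads in all libraries, and CD79A, EBF1 and POU2AF1 had 1, 1 and 2 reads over the 6 libraries. Others had more: CR2 had 351 reads in the control and 284 in the siADNP group, and CD22 had 70 and 41. CD79B had 1 and 14 reads and VPREB3 12 and 3, in the same order. The 12 markers summed to 13.9 to 18.2 CPM with siControl and 13.4 to 16.8 CPM with siADNP, of which most came from the complement receptor gene CR2. Epithelial markers gave 2620 to 2697 and 2590 to 2795 CPM, led by the keratins KRT8 and KRT18 and by EPCAM, while VIL1 had 0 reads and KRT20 and LGALS4 had few. The 4 leukocyte markers summed to 6.99 to 7.62 CPM with siControl and 9.40 to 10.3 CPM with siADNP, nearly all CD68, and PTPRC had 6 and 7 reads. CD68, the only leukocyte marker with enough reads to test, was called higher, as were 14.6% of all genes tested. Its log2 fold change was 0.42 ± 0.15 (adjusted p = 0.0366, edgeR). No tested marker of the other cell types was called. The 5 fibroblast markers gave 7.38 to 8.20 and 7.32 to 10.3 CPM, and DCN and LUM had 0 reads. The part of these other markers in the results was not tested. All samples come from the HCT116 line. Bulk libraries do not show whether fewer of its cells held BANK1 RNA or each cell held less.

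Partners of BANK1 and genes of B cell receptor signalling moved both ways. Of 21 listed, 17 were tested, 5 rose and 3 fell. The share called was 47.1%, against 28.3% of all genes tested, and the median log2 fold change was 0.10. ITPR3, an IP3 receptor, rose from 250 ± 6.35 to 309 ± 9.00 CPM (SD, n = 3; 0.31 ± 0.05, adjusted p = 5.17e-06, edgeR), while its relative ITPR2 fell with -0.30 ± 0.11. The kinase FYN rose with 0.63 ± 0.16, the phospholipase PLCG1 with 0.28 ± 0.06, the adaptor MYD88 with 0.29 ± 0.08 and the exchange factor VAV2 with 0.27 ± 0.07. The kinase SYK fell with -0.36 ± 0.12 and the ubiquitin ligase TRAF6 with -0.27 ± 0.08. LYN, the kinase that phosphorylates BANK1, was at 33.7 ± 1.11 and 37.0 ± 1.53 CPM, and PIK3AP1, an adaptor of related structure, at 21.8 ± 1.15 and 22.2 ± 0.740 CPM (SD, n = 3), and neither passed. GRB2, PLCG2 and ITPR1 had log2 fold changes of 0.10, -0.01 and 0.10. BLK had 0 reads, and BTK, with 26 reads in the control and 9 in the siADNP group, was not tested.

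The falls on that list were the less stable calls. Their count was 1 in DESeq2's Wald test and with the GC offset, and also without siADNP replicate 1, siADNP replicate 3 or siControl replicate 3. SYK did not pass in DESeq2's test (adjusted p = 0.0906) or without siADNP replicate 2 (0.0674), siADNP replicate 3 (0.0651), siControl replicate 2 (0.0851) or siControl replicate 3 (0.122), in a range from 0.00987. ITPR2 did not pass in DESeq2's test (0.106), with the GC offset (0.114), or without siADNP replicate 1 (0.111), siADNP replicate 3 (0.0563) or siControl replicate 3 (0.140), in a range from 0.0268. TRAF6 did not pass with the GC offset (0.0751; 0.0903 when the replicate block was added) or without siADNP replicate 1 (0.0833), in a range from 0.00698. Among the rises, FYN did not pass without siADNP replicate 3 (0.0535, range from 0.000245), MYD88 without siADNP replicate 1 (0.0531, range from 0.00365) and VAV2 with the GC offset (0.0659; 0.0907 when the replicate block was added; range from 0.00224). These adjusted p come from edgeR except where DESeq2 is named.

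KANSL1L fell while its relative KANSL1 had nearly equal levels in both groups. KANSL1 stood at 147 ± 9.97 CPM with siControl and 145 ± 5.86 CPM with siADNP (SD, n = 3) and did not pass (log2 fold change -0.01 ± 0.06). Per kilobase, KANSL1 averaged 16.0 CPM over the 6 libraries, several times the level of KANSL1L. All 10 genes listed here for the NSL complex were tested. HCFC1, a chromatin cofactor, rose from 242 ± 1.69 to 275 ± 7.82 CPM (SD, n = 3; 0.18 ± 0.05, adjusted p = 0.00342, edgeR), and PHF20L1, a methyl-lysine reader, fell from 88.1 ± 1.89 to 76.0 ± 0.809 CPM (SD, n = 3; -0.21 ± 0.06, adjusted p = 0.00554, edgeR). The share called, 2 of 10, compares with 28.3% of all genes tested, and the median log2 fold change was 0.00.

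The other genes listed for the NSL complex did not pass. The acetyltransferase KAT8 had a log2 fold change of 0.08 ± 0.10, the glycosyltransferase OGT 0.02, the WD-repeat protein WDR5 0.05 and the reader PHF20 -0.03. With the GC offset neither call remained: HCFC1 had 0.06 (edgeR adjusted p = 0.334; 0.389 when the replicate block was added; range from 0.00105) and PHF20L1 -0.08 (0.318 and 0.353, range from 0.00438). KAT8 also works in the MSL complex with MSL1, MSL2 and MSL3. None of these 4 genes passed in edgeR or in DESeq2's Wald test, with 1 lower at an unadjusted p under 0.05 and a median of 0.07. MSL3 stood at 17.7 ± 0.839 CPM with siControl and 15.0 ± 0.874 CPM with siADNP (SD, n = 3), without overlap, as in 20.7% of genes tested. MSL2 stood at 81.4 ± 1.88 CPM in control and 84.6 ± 0.646 CPM in siADNP libraries (SD, n = 3). Its groups did not overlap either, with siADNP higher, but the share of genes separated in that direction is not given here. The log2 difference of MSL2, 0.05 ± 0.06, was smaller than its SE.

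Neighbours of the 3 genes were called about as often as genes in general. Of the 30 nearest protein-coding genes, 5 on each side of each member in RefSeq gene order, 20 had enough reads to test, and 2 were called higher and 3 lower, 25% against 28.3% of all genes tested. Near CPA4 on chromosome 7, CPA5 and CPA1 were almost without reads. TMEM209, a nuclear envelope protein, rose with 0.28 ± 0.07 (adjusted p = 0.00208, edgeR), and the imprinted gene MEST rose from 54.6 ± 1.09 to 63.5 ± 2.83 CPM (SD, n = 3; 0.22 ± 0.07, adjusted p = 0.0110, edgeR). CEP41, a centrosomal protein, fell with -0.29 ± 0.10 (adjusted p = 0.0240, edgeR). These were 3 calls among 6 neighbours tested, in both directions, a larger share than around the other members but on few genes. DESeq2's Wald test called 2 of the neighbours of CPA4 higher and 0 lower.

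Around BANK1 on chromosome 4, PPP3CA, a calcineurin subunit, and the zinc transporter SLC39A8, the genes on either side, had -0.06 ± 0.05 and -0.12 ± 0.08 and did not pass. NFKB1, an NF-kB subunit that follows SLC39A8, fell from 76.3 ± 7.33 to 61.4 ± 2.71 CPM (SD, n = 3; -0.31 ± 0.07, adjusted p = 0.000698, edgeR), the only call of 9 tested. Around KANSL1L on chromosome 2, LANCL1, a glutathione-binding protein, fell with -0.20 ± 0.06 (adjusted p = 0.00937, edgeR), the only call of 5 tested. RPE, a pentose phosphate enzyme whose exons overlap those of KANSL1L on the opposite strand, had -0.07 ± 0.07. The strand setting of the counting is not given, so reads of RPE and KANSL1L in the overlap may not be separated. Antisense RNAs overlap KANSL1L exons too, while CPA4 and BANK1 share no exon bases with another gene in GENCODE.

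Some neighbour calls depended on single libraries. CEP41 did not pass without siADNP replicate 1 (adjusted p = 0.0735), siADNP replicate 2 (0.166), siControl replicate 1 (0.0706) or siControl replicate 2 (0.0598), in DESeq2's test (0.0942) or with the GC offset (0.0862), in a range from 0.00642 (edgeR except where DESeq2 is named). MEST missed the threshold on leaving out siADNP replicate 2 (0.0704) or siControl replicate 1 (0.0526), in a range from 0.00402, and LANCL1 did not pass without siADNP replicate 1 (0.0750) or with the GC offset (0.167; 0.187 when the replicate block was added), in a range from 0.00406 (edgeR). The count of falls was 1 with the GC offset and without siADNP replicate 1, and the count of rises was 1 without siADNP replicate 2 or siControl replicate 1.

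**Figure D4:**
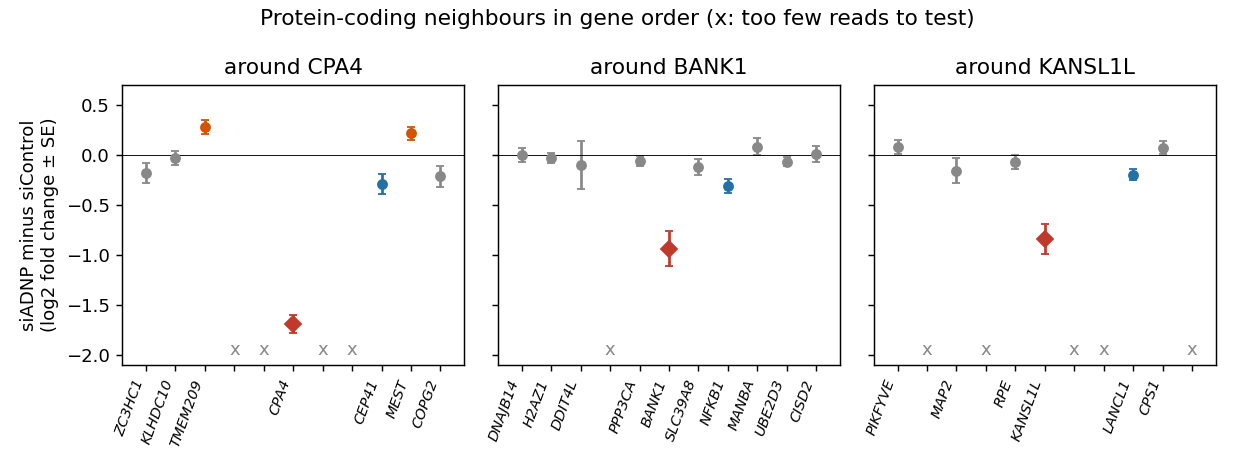
Log2 fold change with its SE for each member (red diamond) and its 5 protein-coding neighbours on each side in gene order; orange and blue mark neighbours called higher or lower, grey those not called and x (left unnamed) those with too few reads. CPA4, BANK1 and KANSL1L lie at -1.69, -0.94 and -0.84, while tested neighbours lie between -0.31 and 0.28.

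Transcript composition differed among the 3 genes as well. The genes called lower had a median transcript GC content of 43.0% and those called higher 54.0%. KANSL1L and BANK1 are AT-rich, with 39.1% and 38.8% GC, and CPA4 has 49.1%. Among 910 tested genes within 1 percentage point of BANK1's GC content, 24.7% were called lower and 7.91% higher, and their median log2 fold change was -0.08. The 961 genes like KANSL1L gave 25.5% and 7.70%, also with -0.08, and the 709 genes like CPA4 gave 11.8% and 14.1%, with -0.01. With the GC offset the log2 fold changes were -0.84 for BANK1, -0.74 for KANSL1L and -1.69 for CPA4. Without it they were -0.94, -0.84 and -1.69. The part of transcript composition in these falls was not tested.

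The gene whose profile lay closest to CPA4 was ADNP. Likeness was measured as the root-mean-square difference of log2 CPM, centred on the control mean, over the 6 libraries and 10537 other genes. ADNP differed from CPA4 by 0.12, the angiopoietin gene ANGPT2 by 0.32 and the coagulation inhibitor TFPI by 0.42. Within the siADNP group the order was not shared: ADNP was lowest in replicate 1, at -1.81 against -1.72 for CPA4, and -1.46 in replicate 3 against -1.61. ZNF624, MACC1, a regulator of MET, and LIPH, a phospholipase, were closest to BANK1, each at 0.19. STK40, a kinase-like protein, ANXA1, an annexin, and MACC1 were closest to KANSL1L, at 0.13, 0.14 and 0.14. Because this measure is set mostly by the size of the fall, 18 genes lay within 0.2 of KANSL1L, 3 within 0.2 of BANK1 and 1 within 0.2 of CPA4. BANK1 and KANSL1L differed from each other by 0.26, and from CPA4 by 0.56 and 0.62.

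**Figure D5:**
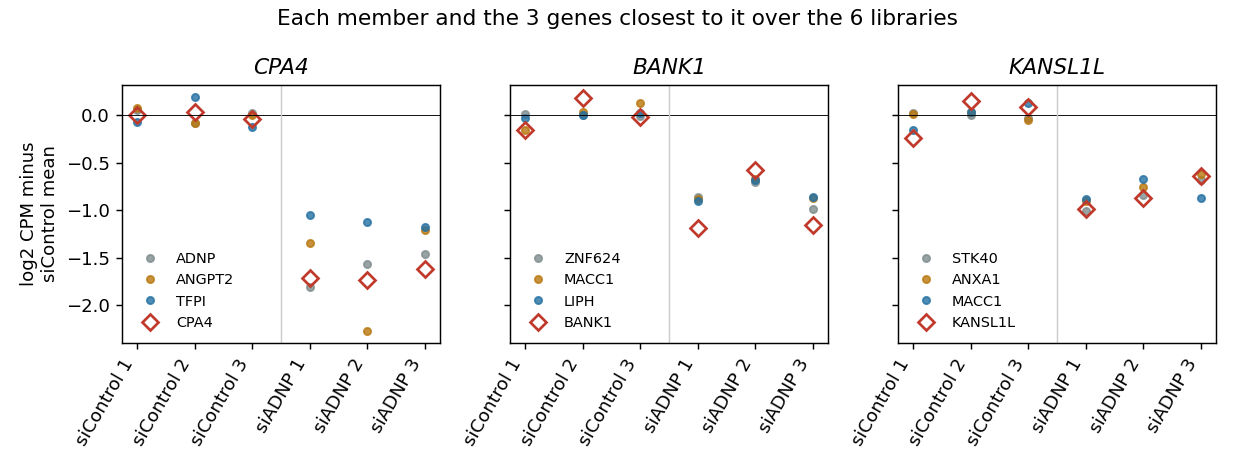
Log2 CPM minus the siControl mean in each of the 6 libraries for each member (open red diamonds) and the 3 genes with the smallest root-mean-square difference from it (filled points). In the siADNP libraries CPA4 lies between -1.73 and -1.61, BANK1 between -1.19 and -0.58, and KANSL1L between -0.99 and -0.64.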

How the data were processed

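RNA of HCT116 cells was sequenced by the submitters from total RNA (3 siADNP and 3 siControl libraries). The table used holds deposited read counts per gene symbol, not normalized. Per the submitters' processing notes, STAR, HTSeq and DESeq2 were used with hg19; versions, annotation and strand setting: not given in the sources used here. The deposited transformed table was not used. The 5 summary lines that name no gene, 71.7% to 73.6% of all reads, were left out.

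Counts were fitted with edgeR 4.0.16 (R 4.3.3; TMM, filterByExpr with a minimum count of 10, glmQLFit, glmQLFTest, Benjamini-Hochberg over all genes tested, two-sided). Each SE was obtained as log2 fold change over √F. The procedure was also run on simulated counts, drawn from the means and dispersions of these data with 200 genes changed. That is far fewer than the 3538 genes called here, so the simulation does not check the calls in these data. Alternatives were DESeq2 1.42.0, other scalings and filters, a replicate block, an offset for transcript GC content (known for 96.6% of tested genes) and leaving out each library. Transcript length and GC content came from GENCODE, and gene order and promoters from RefSeq. Members and lists were chosen with earlier results of these data known. Genes named were ADNP, the members, the genes next to them in order of fall, the 3 most like each, called list genes and neighbours, and up to 4 further genes per list by level. Further genes were named after their values were seen: family members and markers with few or 0 reads, PIK3AP1, KAT8, the MSL genes and the flanking genes that were not called. Some genes of the lists are not reported by name here. Figures were drawn with matplotlib 3.10.9.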

Additional observations from a re-analysis of the deposited data

How the results depend on the processing

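Over the 15 alternatives the log2 fold change lay between -1.72 and -1.67 for CPA4, between -1.18 and -0.83 for BANK1 and between -0.95 and -0.74 for KANSL1L, and it moved by less than the spread between replicates in each. BANK1 moved most without siADNP replicate 2 (-1.18). Counts over all genes stayed within 1.5 times, with 1243 higher and 1160 lower in DESeq2's Wald test. Small list counts moved more. DESeq2's test gave 1 fall among BANK1 partners and 1 rise among other carboxypeptidases. The GC offset, with and without the replicate block, gave 1 fall among BANK1 partners, 0 rises and 0 falls in the NSL complex and 1 fall among neighbours. Leaving out single libraries gave 1 to 3 falls among BANK1 partners, 0 to 1 falls among M14 carboxypeptidases, 1 to 2 rises among other carboxypeptidases, and 1 to 2 rises and 1 to 4 falls among neighbours. The causes of these moves were not tested.

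No pairing by replicate number was visible. Deviations of same-numbered libraries from their group means correlated with 0.0486, -0.0713 and -0.0456, and all pairs of libraries across the groups lay between -0.0713 and 0.104. SiADNP replicate 1 correlated best with its own number, and siADNP replicates 2 and 3 with another. Such small values do not tell whether same-numbered libraries were handled together. With the replicate block 1694 genes were higher and 1542 lower, and the log2 fold changes were -1.69 for CPA4, -0.94 for BANK1 and -0.84 for KANSL1L. Low read counts limit BANK1 and KANSL1L, and groups of 3 were too small for a test of outlying libraries.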
